A study of Mus musculus with 4 samples.

Results

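The genes described here are those of the mitochondrial respiratory chain, encoded in the nucleus or in the mitochondrial genome. They were taken by name: symbols beginning with Ndufa, Ndufb, Ndufc, Ndufs, Ndufv, Uqcr, Cox4i, Cox5, Cox6, Cox7, Cox8 or Atp5, the genes Sdha, Sdhb, Sdhc, Sdhd and Cyc1, and every symbol beginning with mt-. Of the 32285 genes in the deposited matrices, 108 met the name rule and 104 also had at least 100 unique molecular identifiers (UMIs, counts of captured RNA molecules) over the 4 libraries. The 4 genes left out were the tissue isoforms Cox8b with 56 UMIs, Cox6a2 with 16, Cox7b2 with 13 and Cox8c with 0. Of the 104 members, 13 are protein genes of the mitochondrial genome and 91 are nuclear. The nuclear members hold 37 genes of complex I, 8 of its assembly factors (the Ndufaf genes, which the name rule also catches), 4 of complex II, 9 of complex III, 15 of complex IV, 17 of complex V (ATP synthase) and Cox7a2l, which joins complexes into supercomplexes.

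The respiratory chain passes electrons from NADH and succinate to oxygen through complexes I to IV and pumps protons across the inner mitochondrial membrane, and complex V uses the resulting gradient to make ATP. Complexes I, III, IV and V are mosaics: a few membrane-embedded subunits are translated inside the mitochondrion, and the rest are made in the cytosol and imported, whereas complex II is nuclear throughout. Photoreceptors hold dense mitochondria in their inner segments and are known for a high demand for ATP, and Müller glia, the radial glia of the retina, are known to lean on glycolysis.

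At postnatal day 30, 1 retina was taken from each of 4 mice: a wild type (WT) female and male, and an NLGF female and male. Each retina was dissociated and sequenced as a droplet-based single-cell library. NLGF is the usual name of a knock-in line in which the mouse's own App gene carries mutations that raise amyloid production; the labels give the genotype as a name only, with no further allele, treatment or litter. The study asked about Müller glia at an age before amyloid pathology. The files held 35191 barcodes with 85860041 UMIs, 19128388 to 23473093 per library, and 31291 cells were used after filtering.

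Cells were clustered with the 104 members left out of the clustering genes, and 9 classes were named from markers, so that each class name below stands for cells that resemble that type. Rods gave 5679 to 6451 cells per library, cones 142 to 204, Müller glia 255 to 393, rod bipolar cells 156 to 194, cone bipolar cells 309 to 448 and amacrine cells 115 to 183. The smallest classes were horizontal cells (11 to 34 per library), microglia (12 to 29) and a vascular class (12 to 28) that held both endothelial and mural (pericyte) markers. The Müller list summed to 37988 to 39125 counts per 1000000 UMIs (CPM) in Müller glia. Cone bipolar cells held 3240 to 3601 CPM of their own list and 4884 to 5647 CPM of the rod bipolar list. The vascular class also held 7.27, 30947, 12434 and 3898 CPM over 5 erythroid (red cell) markers, whose part in its results was not tested. Rod transcripts were found in every class, at 3138 to 3877 CPM over the rod list in Müller glia, 19253 to 28106 CPM in cones and 5678 to 25399 CPM in microglia, and the part of rod RNA in the results was not tested. CPM values are per class and library, and the fitted log2 differences also carry a TMM scaling factor, so that both need not match. Values in sequence are always in the order WT female, WT male, NLGF female, NLGF male.

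The mitochondrial genome took its largest shares of RNA in rod bipolar cells and cones and its smallest in vascular and amacrine cells, at a limit of 20% mitochondrial UMIs per cell. Without that limit horizontal cells came first (11.55%, against 10.41% in cones and 10.25% in rod bipolar cells), and with a limit of 10% rods (4.23%) came below amacrine cells (4.30%). The 13 genes made up 9.19%, 9.70%, 9.12% and 9.46% of all UMIs in rod bipolar cells and 9.05%, 9.44%, 8.97% and 9.09% in cones. The 2 means, 9.37% ± 0.268 (SD, n = 4) and 9.14% ± 0.210, differed by less than their spread. Horizontal cells followed with 8.75% ± 0.663, then cone bipolar cells with 7.11% ± 0.311, Müller glia with 7.08% ± 0.708 and rods with 6.01% ± 0.912. The means of cone bipolar cells and Müller glia differed by less than their spread, and rods were below both in each of the 4 libraries (5.83%, 7.34%, 5.33% and 5.54%), by less than the range over rods. Microglia at 5.25% ± 1.81, amacrine cells at 4.67% ± 0.456 and vascular cells at 4.11% ± 0.424 also overlapped one another.

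The nuclear members gave another order. Of the UMIs outside the mitochondrial genome, they took 3.43% ± 0.069 (SD, n = 4) in cones and 3.31% ± 0.092 in rod bipolar cells, whose ranges met. They took 2.95% ± 0.080 in horizontal cells, 2.81% ± 0.074 in amacrine cells, 2.67% ± 0.080 in cone bipolar cells and 2.35% ± 0.261 in rods. The lowest shares were those of microglia (2.03% ± 0.423), Müller glia (1.87% ± 0.086) and vascular cells (1.65% ± 0.083). Müller glia and amacrine cells lay at opposite ends when the 2 genomes were set against each other. Müller glia held 4.33, 4.29, 3.79 and 3.83 mitochondrial UMIs per UMI of the nuclear members, and amacrine cells 1.74 on average, with rods (2.71 ± 0.133), cones (2.93 ± 0.017) and rod bipolar cells (3.12) between them. The libraries were 4 in all, and an exact permutation test of 2 against 2 cannot go below a two-sided p of 1 in 3, so the shares were not tested between genotypes. By value, the mitochondrial share of Müller glia was 7.44% and 7.89% in WT and 6.40% and 6.58% in NLGF, with no overlap, and the nuclear share was 1.86%, 1.999%, 1.804% and 1.84%, a narrower gap.

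**Figure D1:**
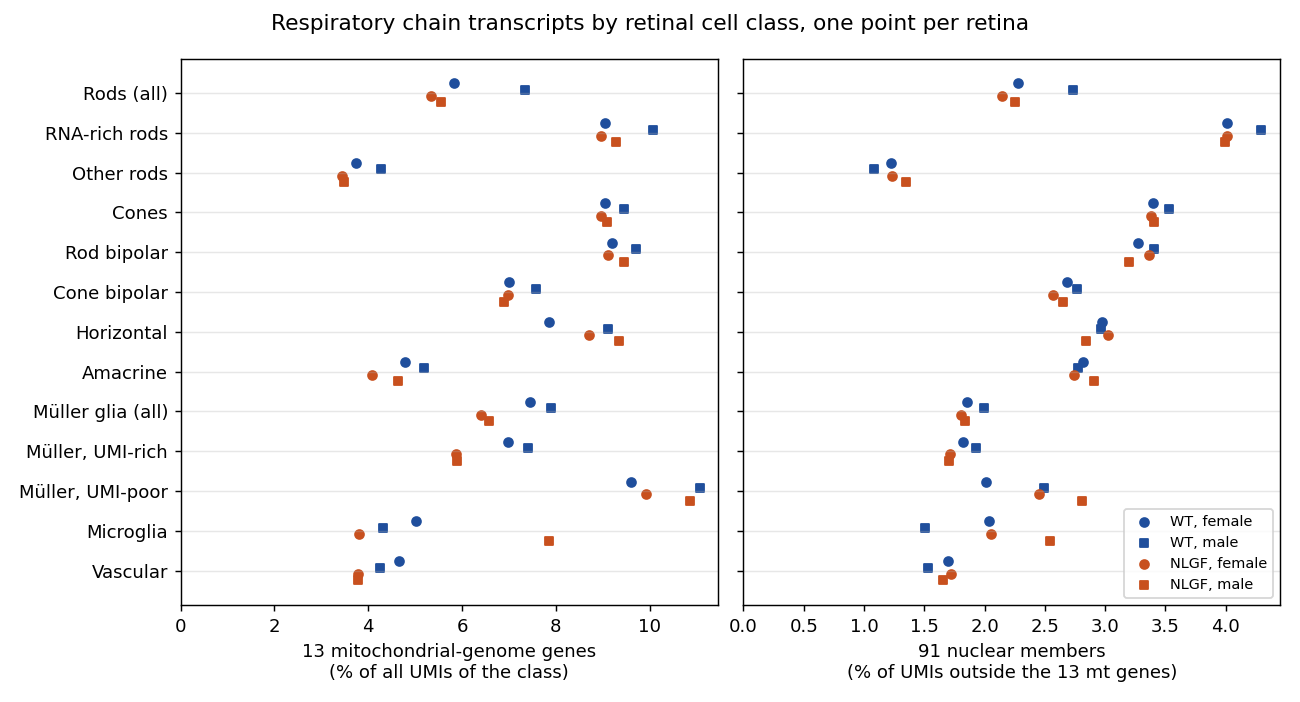
Share of UMIs taken by the 13 mitochondrial genes (left, percent of all UMIs) and by the 91 nuclear members (right, percent of UMIs outside the mitochondrial genome) in each class, with rods and Müller glia also split by cluster. Each point is 1 library (blue WT, orange NLGF, circle female, square male); Müller glia sit at 6.40% to 7.89% on the left and near the bottom on the right.

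Rods were not uniform. Of their clusters, 1 held cells with more RNA (a median of 2278 UMIs per cell against 702 to 1597 in the other rod clusters) and more of both genomes' respiratory chain transcripts among its UMIs. It made up 19.5%, 29.8%, 16.7% and 18.0% of rods. The mitochondrial genes took 9.05%, 10.1%, 8.96% and 9.27% of UMIs in this cluster and 3.74%, 4.27%, 3.45% and 3.48% in the other rods, and the nuclear share was 4.08% ± 0.144 (SD, n = 4) against 1.22% ± 0.107. For all 13 mitochondrial genes and 79 of the 91 nuclear members, the lowest CPM in this cluster was above the highest in the other rods. The same count was not made over all genes, so it is not read as particular to the members. The ratio of mean CPM ranged from 1.91 for mt-Co1 to 3.24 for mt-Nd3 among the mitochondrial genes, with a median of 2.57. Among the nuclear members the median was 2.90, and the range ran from 0.302 for Ndufaf7, a complex I assembly methyltransferase, to 5.57 for Ndufa4, a complex IV subunit despite its name. Ndufa4 stood at 2693 ± 85.8 CPM in RNA-rich rods and 483 CPM in the others. The clusters were drawn from the same cells' other genes, so these ratios are a description. An edgeR fit of this cluster against the other rods was made, and its p-values are not given for this reason. Rods as a whole are a mixture of both, and the reference matters: the comparison with RNA-rich rods is given below for the genes a result turns on.

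Since most nuclear members were higher together in RNA-rich rods, their promoters were searched for motifs known from respiratory genes: the NRF1 core GCGCATGCG, the ETS motif CCGGAAG (bound by GABP) and the YY1 motif AAGATGGCG. Both strands were searched in the 300 bases from 250 before to 50 after each start (RefSeq, GRCm38.p6), each strand counted apart, so that the near-palindromic NRF1 core can match both ways at 1 place. The table held 73 of the 91 nuclear members. At least 1 motif was found for 31 of these (42.5%) and for 12.7% of all 27025 genes with a promoter. The NRF1 core was found for 10 members (13.7%, against 1.95% of all genes), the ETS motif for 19 (26.0%, against 9.93%) and the YY1 motif for 8 (10.96%, against 1.64%). A match is a description of the letters and not a site of binding. The stretches below run from 100 bases before to 30 after the start, with the motif matches in capitals. They are those of Atp5k and Atp5j, subunits of ATP synthase, and of Uqcr11, a small subunit of complex III, which each hold 2 of the motifs, and of the isoform pair Cox6b1 and Cox6b2, of which only the first has a match here. Atp5j has another start, whose stretch (chr16:84835596-84835725) holds 0 of the motifs. In the counts above, a gene with several starts was counted if any of them had a match.
Atp5k, chr5:108434370-108434499, minus strand: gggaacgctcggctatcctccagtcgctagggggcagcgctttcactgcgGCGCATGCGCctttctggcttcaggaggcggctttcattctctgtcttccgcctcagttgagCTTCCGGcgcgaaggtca
Atp5j, chr16:84834947-84835076, minus strand: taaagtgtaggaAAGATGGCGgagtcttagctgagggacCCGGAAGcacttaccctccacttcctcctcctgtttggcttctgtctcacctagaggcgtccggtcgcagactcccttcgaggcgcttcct
Uqcr11, chr10:80406792-80406921, minus strand: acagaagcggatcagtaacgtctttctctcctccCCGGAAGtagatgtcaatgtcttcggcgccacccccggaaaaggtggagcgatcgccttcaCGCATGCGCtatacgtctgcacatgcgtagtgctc
Cox6b1, chr7:30626085-30626214, minus strand: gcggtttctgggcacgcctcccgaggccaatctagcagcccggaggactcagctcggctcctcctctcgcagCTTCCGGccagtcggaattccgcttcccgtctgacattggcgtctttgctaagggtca
Cox6b2, chr7:4753065-4753194, minus strand: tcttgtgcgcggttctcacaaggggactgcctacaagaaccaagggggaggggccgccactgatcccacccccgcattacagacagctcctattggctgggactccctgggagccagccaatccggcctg

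Levels of these genes were higher in RNA-rich than in other rods for the first 4 and not for Cox6b2. The genes were chosen after their values were seen, and whether motifs go with levels over the members was not tested. Ndufa4, with the highest ratio (5.57), had 0 of the motifs. Ndufaf4, with the NRF1 core, was not higher in RNA-rich rods (a fitted log2 difference of −0.18). Atp5k stood at 601, 739, 686 and 671 CPM in RNA-rich rods and at 167, 164, 182 and 195 CPM in the others. Cox6b1 stood at 530, 553, 528 and 532 CPM against 134, 117, 129 and 156 CPM. Cox6b2 stood at 2.71, 4.399, 4.86 and 4.15 CPM against 4.80, 4.95, 4.82 and 6.49 CPM, and these ranges overlapped.

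The sharpest differences between classes lay in the alternative subunits of complex IV. Complex IV has several subunits with a widespread form and a second gene used in particular tissues. In Müller glia the alternative form Cox4i2, best known from lung and from oxygen-sensitive cells, was as abundant as the common form. Cox4i2 (chr2:152754173-152765037, plus strand, GRCm38) stood at 632, 742, 661 and 647 CPM in Müller glia, at 160, 101, 81.1 and 163 CPM in vascular cells and at 6.50, 8.21, 7.32 and 6.27 CPM in rods. Its mean in Müller glia was 58.7 times that of cone bipolar cells (11.4 ± 0.27 CPM, SD, n = 4), the highest neuronal class, and its mean in vascular cells 11.05 times. Of the UMIs of Cox4i1 and Cox4i2 together, Cox4i2 made up 51.7%, 51.6%, 50.6% and 48.8% in Müller glia and 27.3%, 19.2%, 13.1% and 26.5% in vascular cells, and its mean share was at most 1.40% in the neuronal classes. Cox4i1 lies at chr8:120668222-120674207 and overlaps Gm20388 on its strand and Emc8 on the other, so some of its reads could be counted elsewhere.

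Single cells held both forms. In the UMI-rich Müller cluster (median 8666 to 11514 UMIs per cell), Cox4i2 had a UMI in 95.8%, 98.7%, 97.3% and 94.6% of cells, and 92.5%, 97.5%, 95.1% and 92.9% of cells had UMIs of both Cox4i1 and Cox4i2. Cones have a similar depth (a median of 8995 UMIs over all cells). There 3.92%, 1.41%, 2.01% and 3.37% of cells had a Cox4i2 UMI. The part of free RNA in the shares of either class was not tested.

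Cox6b2, known as the testis form of the COX6B subunit, was also highest in Müller glia. It stood at 83.2, 93.0, 112 and 117 CPM there, 4.08 times the mean of amacrine cells (24.8 CPM), and its share of Cox6b1 and Cox6b2 UMIs was 21.3%, 22.0%, 28.1% and 27.9%. In amacrine cells the share was 5.00% and in the other neuronal classes at most 3.72% on average, and microglia held 1 Cox6b2 UMI in all. Vascular cells, which shared Cox4i2 with Müller glia, had 0 Cox6b2 UMIs among 947036, which allows up to 3.17 CPM (3 counts, counting error only).

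Ndufa4l2, the paralogue of Ndufa4 known from hypoxic cells and pericytes, was a gene of the vascular class. It stood at 349, 223, 264 and 300 CPM there (271 UMIs), 132 times the mean of amacrine cells (2.15 CPM), the highest neuronal class, and made up 53.6%, 43.1%, 38.8% and 43.9% of Ndufa4 and Ndufa4l2 UMIs. In Müller glia it stood at 19.9, 25.8, 9.74 and 7.09 CPM, and rod bipolar cells, horizontal cells and microglia had 0 UMIs. The muscle form Cox7a1 was highest in horizontal cells at 28.6, 16.4, 49.6 and 24.1 CPM, on 49 UMIs, where it made up 4.08% of the Cox7a1, Cox7a2 and Cox7a2l UMIs. Müller glia followed with 12.8 CPM. The remaining alternative forms were near the limit of detection: Cox6a2 had at most 5 UMIs in any class, and 43 Cox8b UMIs were in cone bipolar cells.

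**Figure D2:**
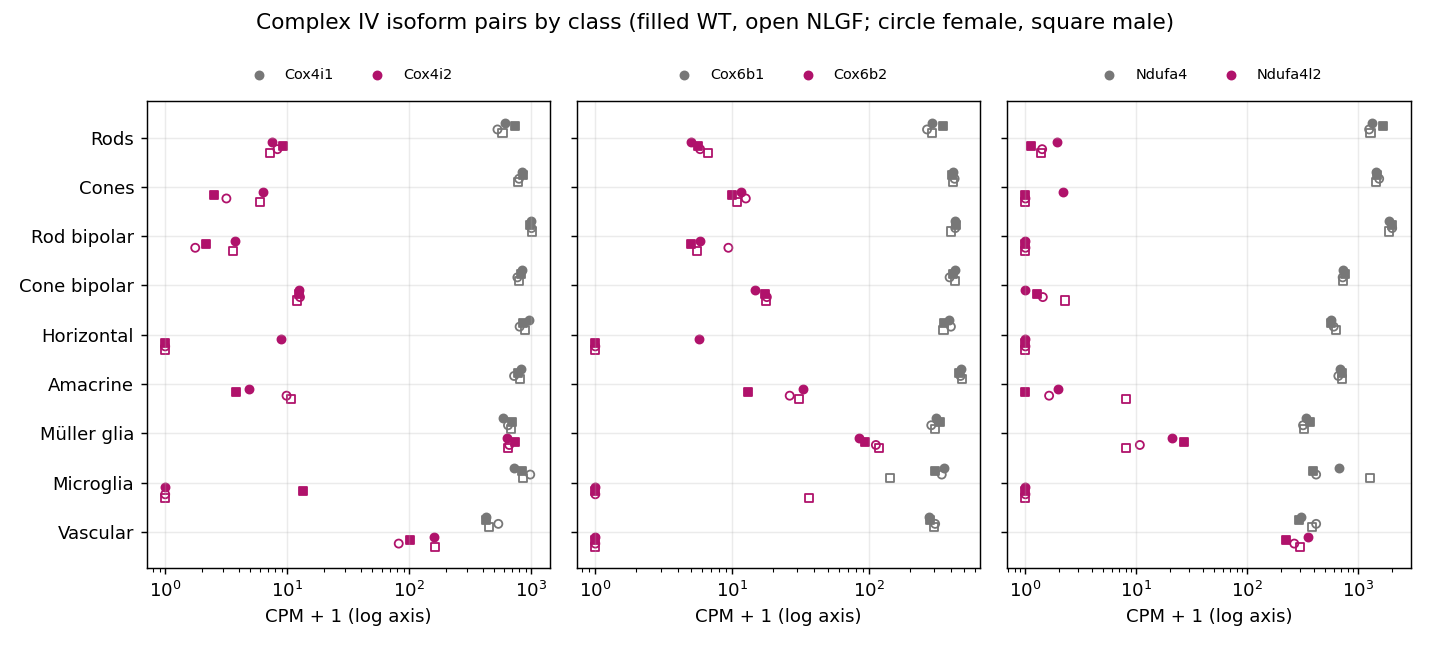
Level (CPM + 1, log axis) of 3 isoform pairs, Cox4i1 and Cox4i2, Cox6b1 and Cox6b2, and Ndufa4 and Ndufa4l2, in each class. Each point is 1 library (filled WT, open NLGF); Cox4i2 reaches the level of Cox4i1 in Müller glia only, at 632 to 742 CPM, and Ndufa4l2 makes up 38.8% to 53.6% of its pair in vascular cells.

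To describe the members across classes, each class was compared with rods in 1 fit with the library as a block (edgeR quasi-likelihood test, Benjamini-Hochberg adjusted over 13596 genes, threshold 0.05). A large part of all genes passed in every class, so a count of members is read against the share of all genes called in the same direction. In cones 70 of the 104 members were higher (62 nuclear, 8 mitochondrial) where 19.5% of all genes were, and 3 were lower where 33.5% were. In rod bipolar cells 57 were higher (49 and 8) where 27.6% of all genes were, and 16 were lower where 37.9% were. In horizontal cells 51 were higher (46 and 5) where 26.9% of all genes were, and 15 were lower where 34.3% were. In these 3 classes a larger share of the members than of all genes was higher, and the nuclear medians were +0.35, +0.23 and +0.24 on the log2 scale beside −0.26, −0.25 and −0.36 over all genes.

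By their calls, Müller glia, vascular cells and microglia lay on the other side. In Müller glia 23 members were higher where 37.2% of all genes were, and 58 were lower where 38.9% were. The 2 genomes parted there: 8 mitochondrial genes were higher and 2 lower (median +0.28), while 15 nuclear members were higher and 56 lower (median −0.35). The median over all genes was −0.09. In vascular cells 7 members were higher where 26.9% of all genes were, and 81 were lower where 32.7% were. The medians were −0.61 (nuclear) and −0.79 (mitochondrial) beside −0.40 over all genes. In microglia 3 were higher where 11.7% of all genes were, and 59 were lower where 24% were. The medians of −0.69 and −0.77 were nevertheless above the −1.06 over all genes, so the medians and the calls differ in microglia.

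Amacrine and cone bipolar cells depended on the scaling. In amacrine cells 37 members, all nuclear, were higher where 37.7% of all genes were, and 43 were lower where 37.8% were; 12 of the 13 mitochondrial genes were among the lower (median −0.84) and the nuclear median was +0.02. In cone bipolar cells 27 were higher where 33.7% of all genes were, and 45 were lower where 38.3% were, with medians of −0.10 and −0.17. Scaling to totals without TMM moved the median of all genes by 0.340 in amacrine cells and 0.308 in cone bipolar cells, and the members then split 58 higher to 23 lower and 52 to 17. The same change of scaling moved that median by 0.125 in cones, 0.353 in microglia and 0.192 in vascular cells, and by less than 0.1 in the other classes, without turning the balance of the members' calls. Against RNA-rich rods alone, the medians of the nuclear and mitochondrial members were below 0 in all 8 classes, from −0.63 in cones to −1.59 in vascular cells for the nuclear members and from −0.59 in rod bipolar cells to −1.84 in amacrine cells for the mitochondrial genes.

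**Figure D3:**
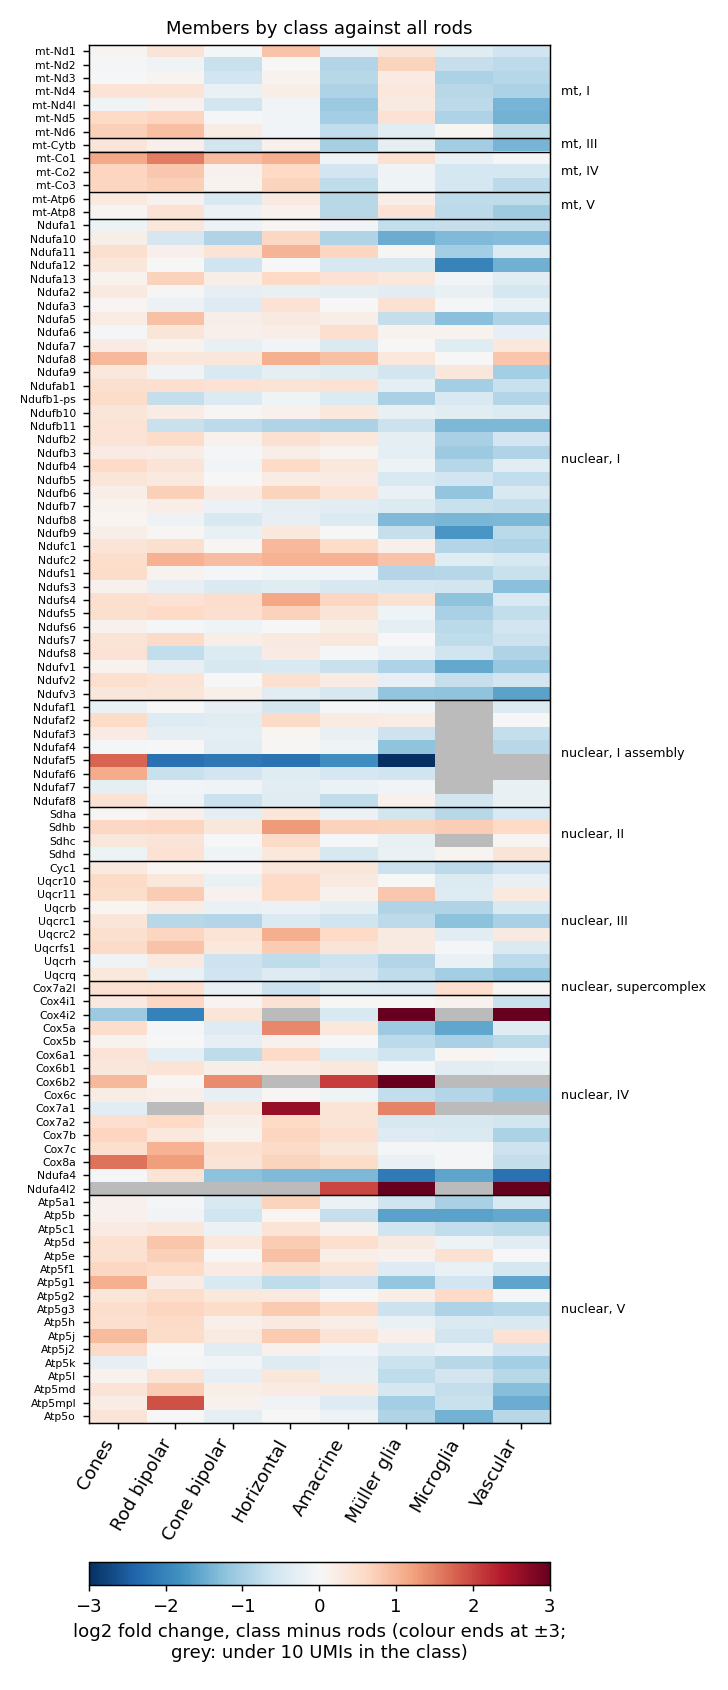
Difference of the members described (rows, grouped by genome and complex) between each of 8 classes and rods, on the log2 scale, with colours ending at 3 in both directions and grey where a gene had under 10 UMIs in the class. Müller glia and vascular cells are mostly below rods for the nuclear members, apart from Cox4i2 (+6.48 in Müller glia) and Ndufa4l2 (+8.94 in vascular cells).

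Taken by complex, the lower members of Müller glia came from all 5. Among nuclear members, 5 of the 37 of complex I were higher and 23 lower, 0 of the 8 assembly factors higher and 4 lower, 1 and 2 of the 4 of complex II, 3 and 5 of the 9 of complex III, 4 and 8 of the 15 of complex IV, and 2 and 13 of the 17 of complex V. Atp5b, the catalytic subunit of ATP synthase, stood at −1.60 ± 0.087 against rods (log2, SE) and −2.51 against RNA-rich rods. The higher members were led by the alternative complex IV genes, Cox4i2 (+6.48 ± 0.116), Ndufa4l2 (+4.91 ± 0.433) and Cox6b2 (+4.32 ± 0.137), which were also higher than in RNA-rich rods (+6.36, +4.75 and +4.21, adjusted p = 2.97e-52, 4.88e-12 and 8.98e-34, edgeR). Among the lowest were Ndufaf5 (−3.14 ± 0.154) and Ndufa4 (−2.12 ± 0.093). Among mitochondrial genes, 6 of the 7 of complex I were higher in Müller glia, mt-Nd2 the most (+0.68 ± 0.102), and mt-Nd6 lower (−0.34 ± 0.091). Against RNA-rich rods mt-Nd2 was lower (−0.28, adjusted p = 0.00591, edgeR), and the medians in Müller glia were −0.69 (mitochondrial) and −1.26 (nuclear). mt-Nd6 is the only protein gene on the other strand of the mitochondrial genome and lies opposite mt-Nd5 (13552 to 14070).

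In cones 25 of the 37 complex I members were higher and 1 lower, and 13 of the 17 of complex V were higher and 1 lower. The gene that stood out was Ndufaf5, which hydroxylates a core complex I subunit during assembly (chr2:140170649-140203689, plus strand). Ndufaf5 stood at 308, 337, 297 and 319 CPM in cones and at 88.7, 97.2, 74.1 and 81.2 CPM in rods, and its mean was between 10.3 and 29.2 CPM in the other classes. It was +1.76 ± 0.086 above rods and +0.74 above RNA-rich rods (adjusted p = 7.75e-12, edgeR). Cox8a, a small subunit of complex IV, stood at 2034, 2357, 2029 and 2161 CPM in cones, 1615 CPM in rod bipolar cells and 639 CPM in rods, and it was higher in cones than in RNA-rich rods as well (+0.45, adjusted p = 6.61e-07, edgeR). Cox4i2 (−1.09) and Atp5k (−0.24) were among the members lower in cones.

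Rod bipolar cells stood apart by a gene of each genome. Atp5mpl, a small subunit of the membrane part of ATP synthase, stood at 1183, 1294, 1337 and 1255 CPM there against 316 CPM in rods, with means of 127 to 431 CPM over the other classes. It was +1.91 ± 0.078 above rods and +0.72 above RNA-rich rods (adjusted p = 9.23e-15, edgeR). The mitochondrial gene mt-Co1, the catalytic core of complex IV, stood at 17785, 18961, 18418 and 18937 CPM in rod bipolar cells. Next came cones with 14429.7 ± 534 CPM (SD, n = 4) and cone bipolar cells with 14104 ± 534, which overlapped, then horizontal cells with 13467, Müller glia with 8640 and rods with 6031 ± 797 CPM. Against rods mt-Co1 was higher in rod bipolar cells (+1.54 ± 0.110), cones (+1.14 ± 0.109) and horizontal cells (+1.07 ± 0.109), where the other mitochondrial complex IV genes mt-Co2 and mt-Co3 were higher too. It was also above RNA-rich rods in rod bipolar cells (+0.72, adjusted p = 5.00e-10) and cones (+0.33, adjusted p = 0.00228, both edgeR). In cone bipolar cells it was +0.92 above rods but not called against RNA-rich rods (+0.08, adjusted p = 0.432). Ndufaf5 (−2.24) and Cox7a1 (−2.15, on 6 UMIs) were the lowest in rod bipolar cells.

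In horizontal cells the highest members against rods were Cox7a1 (+2.62 ± 0.360), Cox5a (+1.44 ± 0.075), a subunit that binds the catalytic core of complex IV, and Sdhb (+1.28 ± 0.134), the iron-sulfur subunit of complex II. Cox5a stood at 841, 860, 764 and 706 CPM there against means of 125 to 434 CPM in the other classes. Sdhb stood at 152, 117, 119 and 123 CPM in horizontal cells and 50.4 CPM in rods. These 3 were also higher than in RNA-rich rods (+1.41, +0.43 and +0.69, adjusted p = 0.000263, 6.71e-07 and 6.37e-06, edgeR), on only 11 to 34 cells per library. Ndufaf5 (−2.21) and Ndufa4 (−1.33) were among the lowest.

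The other inner neurons gave fewer members above RNA-rich rods. In amacrine cells Cox6b2 (+2.07, and +1.93 against RNA-rich rods), Ndufa4l2 (+2.001) and Ndufc2 (+1.04), an accessory subunit of complex I, led against rods. Ndufa4l2 rested on 18 UMIs (2, 0, 1 and 15), mostly of the NLGF male, and was +1.84 against RNA-rich rods (adjusted p = 0.0391, edgeR). Ndufc2 was not called against RNA-rich rods (+0.10, adjusted p = 0.190, edgeR). Cone bipolar cells were led by Cox6b2 (+1.42, and +1.29 against RNA-rich rods), Ndufc2 (+0.93) and mt-Co1. Ndufaf5 and Ndufa4 were among the lowest members in both (−1.85 and −1.34 in amacrine cells, −2.14 and −1.22 in cone bipolar cells). In microglia the highest were the complex V members Atp5g2 (+0.60) and Atp5e (+0.45) with Cox7a2l (+0.51), whose values against RNA-rich rods were −0.29, −0.67 and −0.54, and the lowest were Ndufaf5 (−3.03, on 3 UMIs), Ndufaf4 (−2.05, on 6) and Ndufa12 (−2.01, on 15). In vascular cells Ndufa4l2 (+8.94 ± 0.358) and Cox4i2 (+4.03 ± 0.234) were followed by Ndufa8 (+0.84), which was not called against RNA-rich rods (−0.06, adjusted p = 0.740, edgeR), and Ndufaf5 (−3.36, on 9 UMIs) was among the lowest.

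Genotype was compared within each class on counts summed per library. In Müller glia 4 members fell in NLGF and 0 rose, where 2.13% of the 11197 genes tested were called (edgeR quasi-likelihood test, Benjamini-Hochberg adjusted over all genes, threshold 0.05). Of these 4 members, 3 were mitochondrial. mt-Atp8, a short membrane subunit of ATP synthase, stood at 1316, 1271, 871 and 946 CPM and fell by 0.55 ± 0.095 on the log2 scale (SE, adjusted p = 0.00138, edgeR). mt-Nd2 and mt-Nd4, proton-pumping subunits of the membrane arm of complex I, had smaller differences. mt-Nd2 stood at 9799, 10091, 7921 and 8129.95 CPM (−0.35 ± 0.076, adjusted p = 0.0112, edgeR), and mt-Nd4 at 5639, 5979, 4692 and 4767 CPM (−0.34 ± 0.082, adjusted p = 0.0273, edgeR). The nuclear gene was Ndufa4l2, which stood at 19.9, 25.8, 9.74 and 7.09 CPM on 116 UMIs (−1.504 ± 0.303, adjusted p = 0.00625, edgeR) and lies at chr10:127514967-127517154 on the plus strand, opposite Shmt2.

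mt-Atp8 shares its last bases with the start of mt-Atp6, the proton-channel subunit of ATP synthase, and both are carried on 1 transcript. The gene (chrM:7766-7969, plus strand, GRCm38) is printed because it gave the lowest adjusted p of the members; the 43 bases it shares with mt-Atp6 (7927 to 8607) are in capitals.
mt-Atp8: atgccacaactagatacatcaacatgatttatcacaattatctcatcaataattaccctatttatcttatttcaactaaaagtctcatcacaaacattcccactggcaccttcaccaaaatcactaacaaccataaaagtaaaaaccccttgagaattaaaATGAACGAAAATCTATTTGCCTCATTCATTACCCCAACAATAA
mt-Atp6 stood at 13213, 13808, 11466 and 12099 CPM in Müller glia and was not called (−0.24, adjusted p = 0.108, edgeR). mt-Nd4 overlaps mt-Nd4l in the same way, and mt-Nd2 (3914 to 4951) overlaps the transfer RNA gene mt-Tw, so reads at these borders could fall to either gene.

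The rest of the mitochondrial genome leaned the same way in Müller glia without passing. Of the 13 genes 12 had a negative log2 difference, with a median of −0.28 beside 0.003 over all genes, and 10 had an unadjusted p under 0.05. The values were −0.31 for mt-Nd1 (adjusted p = 0.0518, edgeR), −0.28 for mt-Co3 (0.0583), −0.28 for mt-Co1 (0.0700), −0.27 for mt-Cytb (0.0852), −0.26 for mt-Co2 (0.108), −0.30 for mt-Nd5 (0.108), −0.17 for mt-Nd3 (0.567) and −0.10 for mt-Nd4l (0.755). mt-Nd6, from the other strand, had a value of 0.00 (0.999). Of the nuclear members 68 of 91 had a negative value, with a median of −0.10, and 17 had an unadjusted p under 0.05. Over all 11197 genes 5539 had a negative value and 1351 an unadjusted p under 0.05 (edgeR). The nuclear members that were not called ranged from −0.38 for Ndufa11 (0.0622) to +0.14 for Ndufa10 in complex I, from −0.15 for Ndufaf8 to +0.58 for Ndufaf6 among its assembly factors, and from −0.20 for Sdha to +0.13 for Sdhc in complex II. Complex III ran from −0.32 for Uqcrb (0.0843) to +0.13 for Uqcrc2, and complex V from −0.33 for Atp5g3 (0.0943) to +0.05 for Atp5md, while Cox7a1 had the highest value in complex IV (+0.43). DESeq2 called mt-Atp8, mt-Nd2 and mt-Nd4 but not Ndufa4l2 (adjusted p = 0.188). The calls in Müller glia were lost without the NLGF male and mostly lost without the NLGF female. With 1 library left out, the values ran from −1.75 to −1.27 for Ndufa4l2 and from −0.61 to −0.49 for mt-Atp8. They ran from −0.38 to −0.32 for mt-Nd2 and from −0.38 to −0.29 for mt-Nd4.

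The Müller class held 2 large clusters, which were fitted apart, first the UMI-rich of them (a median of 10005 UMIs per cell, 120 to 184 cells per library). There 10 mitochondrial and 5 nuclear members fell and 0 rose, where 2.71% of all genes were called. The mitochondrial share was 6.98% and 7.41% in WT and 5.86% and 5.89% in NLGF, and the medians were −0.33 (mitochondrial) and −0.16 (nuclear). The nuclear genes besides Ndufa4l2 (−1.43) were Ndufa11 and Ndufb11, membrane-arm accessory subunits of complex I, Uqcrb of complex III and Atp5g3, which encodes the rotating c subunit of ATP synthase. Ndufa11 stood at 188, 159, 117 and 125.96 CPM (−0.56, adjusted p = 0.0031, edgeR). Uqcrb stood at 215, 224, 172 and 168 CPM (−0.42, adjusted p = 0.00936) and Atp5g3 at 162, 170.4, 120 and 132 CPM (−0.46, adjusted p = 0.0147, both edgeR). Ndufa11 overlaps Vmac, Uqcrb Gm10767 and Ndufb11 Rbm10 on the opposite strand. In the UMI-poor cluster (a median of 861 UMIs per cell) 0 members were called by edgeR where 0.0641% of all genes were. An unadjusted p under 0.05 was found for 0 mitochondrial and 5 nuclear members, beside 333 of all 4683 genes. The medians were −0.01 (mitochondrial) and +0.21 (nuclear). This cluster held 13006 to 16383 CPM of rod markers, against 1553 to 1996 CPM in the UMI-rich cluster. Its pigment epithelium markers summed to 10.5, 2345, 11.6 and 954 CPM, and those of all Müller glia to 17.7, 318, 19.5 and 131 CPM. The part of pigment epithelium RNA in the results was not tested. Whether the clusters differ in their genotype effect was not tested.

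A few cells with astrocyte markers sat in the Müller class of the WT libraries only. With at least 10 UMIs over Gfap, Pax2, Pdgfra and Igfbp5, the WT female had 5 such cells, the WT male 3 and the NLGF libraries 0, and they held 10.2% and 3.08% of the Müller UMIs of those libraries. The whole astrocyte list of 6 markers, of which 0 were at 0, summed to 1320, 434, 96.4 and 103 CPM with these cells and to 97.6, 94.5, 96.4 and 103 CPM without them. Without them 2 members fell, where 1.08% of all genes were called: mt-Atp8 (1237.5, 1235, 871 and 946 CPM, −0.48 ± 0.110, adjusted p = 0.0223, edgeR) and Ndufa4l2 (−1.59 ± 0.298, adjusted p = 0.00417). mt-Nd2 and mt-Nd4 were then not called (adjusted p = 0.183 and 0.354), and the mitochondrial share became 6.80%, 7.72%, 6.40% and 6.58%. In the UMI-rich cluster without these cells 6 members fell, where 1.48% of all genes were called: mt-Atp8 (−0.51, adjusted p = 0.0106), mt-Nd2 (−0.37, 0.0428), Ndufa4l2 (−1.53, 0.00623), Ndufa11 (−0.52, 0.00624), Uqcrb (−0.43, 0.0104) and Atp5g3 (−0.43, 0.0325). The mitochondrial medians were −0.17 in the class and −0.20 in this cluster without these cells.

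**Figure D4:**
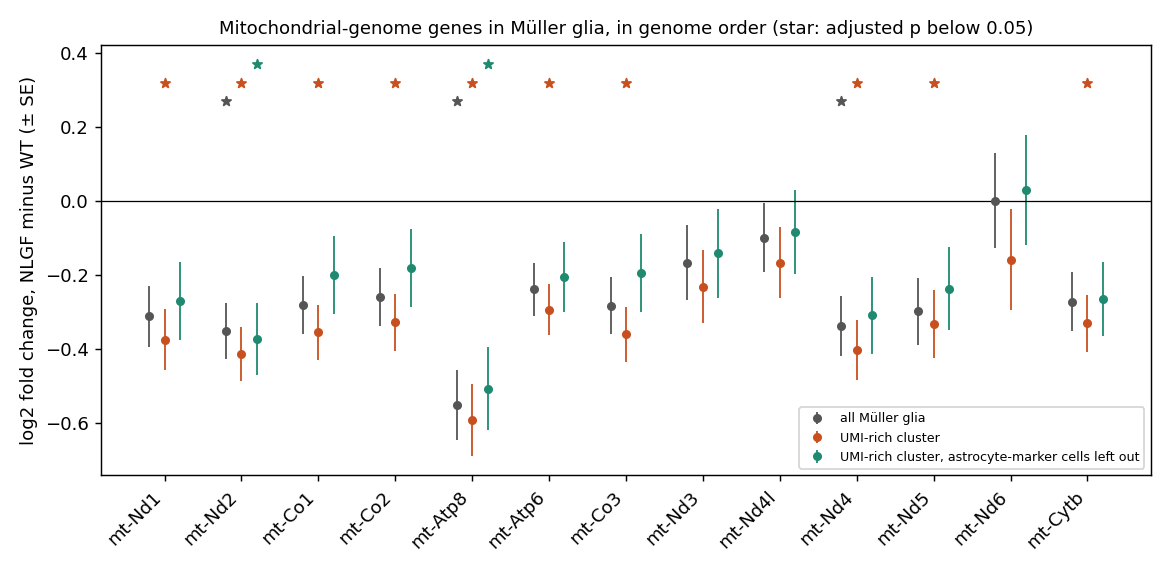
Difference between NLGF and WT (log2, bars are the standard error) for the 13 mitochondrial genes, in genome order, in all Müller glia, in the UMI-rich Müller cluster and in that cluster without the astrocyte-marker cells; a star marks an adjusted p below 0.05 (edgeR). mt-Atp8 is starred in each of the 3, at −0.55, −0.59 and −0.51, and mt-Nd6 lies at 0.00 in all Müller glia.

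Ndufa4l2 is also a marker of mural cells, so the markers of the vascular class in Müller glia are given beside it. The endothelial list summed to 1825, 1784, 2190 and 1936 CPM in Müller glia, with 1 of its 8 markers at 0, and the mural list to 303, 159, 166 and 182 CPM, with 2 of its 9 markers at 0. Without the astrocyte-marker cells the mural list summed to 169.8, 136, 166 and 182 CPM. The part of vascular RNA in the fall of Ndufa4l2 was not tested. The astrocyte-marker cells held 0 Ndufa4l2 UMIs. Over the alternatives tried, Ndufa4l2 was called in 12 of 15 fits, with values from −1.75 to −1.27, and mt-Atp8 in 12 of 14, with values from −0.61 to −0.44.

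mt-Atp8 had a lower level in both NLGF libraries than in both WT libraries in 7 of the 9 classes, and passed in Müller glia. It stood at 787, 1005, 633 and 680.2 CPM in rods (−0.53, adjusted p = 0.466, edgeR), at 966, 923, 794 and 852 CPM in cones (−0.21, 0.770), at 1199, 1239.5, 968 and 1014 CPM in rod bipolar cells (−0.31, 0.190) and at 926, 981, 766 and 723 CPM in cone bipolar cells (−0.38, 0.122). Amacrine cells had 630.4, 670.2, 438 and 489 CPM (−0.51, 0.0859) and vascular cells 538, 455, 355 and 350 CPM (−0.50, 0.933). The genotypes overlapped in horizontal cells (843, 1019, 767 and 966 CPM, −0.07) and microglia (618, 440, 605 and 850 CPM, +0.52). The calls outside Müller glia depended on the fit. DESeq2 called mt-Atp8 in cone bipolar cells as well (−0.38, adjusted p = 0.00267). Without the filter on low counts edgeR also called it in rods (adjusted p = 0.000183), rod bipolar cells (0.0342), cone bipolar cells (0.000115) and amacrine cells (1.57e-05). It was called in rods when either WT library was left out (adjusted p = 8.24e-24 without the WT female and 0.0184 without the WT male, edgeR) or when cells under 1000 UMIs were (0.0492), and in amacrine cells without the WT female (0.000159), the WT male (0.00425) or the NLGF male (0.00484).

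Set against mt-Atp6, its partner on the same transcript, mt-Atp8 was lower in NLGF in all classes but microglia. This ratio was chosen after the values had been seen. Müller glia held 9.96, 9.20, 7.60 and 7.82 mt-Atp8 UMIs per 100 mt-Atp6 UMIs, and rod bipolar cells 9.81, 9.64, 8.22 and 8.04. Rods held 7.61, 7.64, 6.84 and 6.90, cones 6.80, 6.27, 5.70 and 5.95, cone bipolar cells 9.68, 9.64, 8.35 and 7.78, and amacrine cells 8.12, 7.96, 6.70 and 6.56. Horizontal cells (6.91, 7.07, 5.59 and 6.66) and vascular cells (6.46, 6.09, 5.64 and 5.14) did not overlap either, whereas microglia did (7.21, 6.23, 10.1 and 6.96). The classes come from the same 4 libraries, so these are not independent comparisons, and a difference between libraries and one between genotypes cannot be told apart with 2 of each.

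In the other classes 0 members were called for genotype by edgeR. In rods 0 were called where 0.00809% of the 12362 genes were. An unadjusted p under 0.05 was found for 41 nuclear members and 9 mitochondrial genes, beside 1048 of the 12362 genes. A negative value was found for 84 of 90 nuclear members and 13 of 13 mitochondrial genes (medians −0.23 and −0.37), beside 5957 of all genes. The values ran from −0.44 (Ndufa12) to −0.06 (Ndufab1) in complex I, from −0.33 (Ndufaf5) to +0.22 (Ndufaf6) among assembly factors, from −0.17 (Sdhc) to +0.03 (Sdhd) in complex II and from −0.33 (Uqcrb) to −0.04 (Uqcrc2) in complex III. In complex IV they ran from −0.67 (Cox7a1) to +0.20 (Cox6b2), in complex V from −0.38 (Atp5c1) to −0.08 (Atp5md), and among the mitochondrial genes from −0.53 (mt-Atp8) to −0.12 (mt-Nd6). The WT male held the most RNA-rich rods (29.8% of its rods against 16.7% to 19.5%), and the nuclear share of its rods was the highest (2.73% against 2.14% to 2.28%). Without the WT female the rod medians were −0.56 (mitochondrial) and −0.38 (nuclear), and without the WT male they were −0.14 and −0.09.

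Split by cluster, the rod difference was smaller or of the other sign for the nuclear members. In RNA-rich rods 0 were called by edgeR where 0.0762% of all genes were, with medians of −0.07 (nuclear) and −0.11 (mitochondrial). There 22 nuclear members and 1 mitochondrial gene had an unadjusted p under 0.05, beside 721 of all 9188 genes. In the other rods 0 were called where 0.0503% of all genes were. Here 11 nuclear members and 10 mitochondrial genes had an unadjusted p under 0.05, beside 790 of all 11936 genes. A positive value was found for 76 of 89 nuclear members (median +0.15), beside 5836 of all genes, and the mitochondrial median was −0.23. DESeq2 also called 0 members in rods.

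By edgeR cones had 0 members called where 0.0217% of all genes were (5 nuclear and 2 mitochondrial at an unadjusted p under 0.05), with medians of −0.05 (nuclear) and −0.04 (mitochondrial). Rod bipolar cells had 0 where 0.0107% of all genes were called (9 and 2), with medians of −0.06 and −0.04, and cone bipolar cells 0 where 0% were (14 and 5), with −0.08 and −0.10. In amacrine cells 0 were called where 0.00894% of all genes were (2 and 9 at an unadjusted p under 0.05); 12 of 13 mitochondrial genes had a negative value (median −0.23) beside a nuclear median of −0.00. Horizontal cells had 0 called where 0.103% of all genes were (2 and 0), vascular cells 0 where 0.096% were (3 and 4) and microglia 0 where 0% were (1 and 1), with mitochondrial medians of +0.11, −0.23 and +0.39. Among all genes, an unadjusted p under 0.05 held for 583 of 9208 in cones and 575 of 9381 in rod bipolar cells. The same counts were 774 of 11715 in cone bipolar cells, 534 of 11190 in amacrine cells and 321 of 5845 in horizontal cells. They were 269 of 5210 in vascular cells and 90 of 873 in microglia. In amacrine cells 5598 of all genes had a negative value. Beyond mt-Atp8 in cone bipolar cells, DESeq2 called 0 members in these classes.

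**Figure D5:**
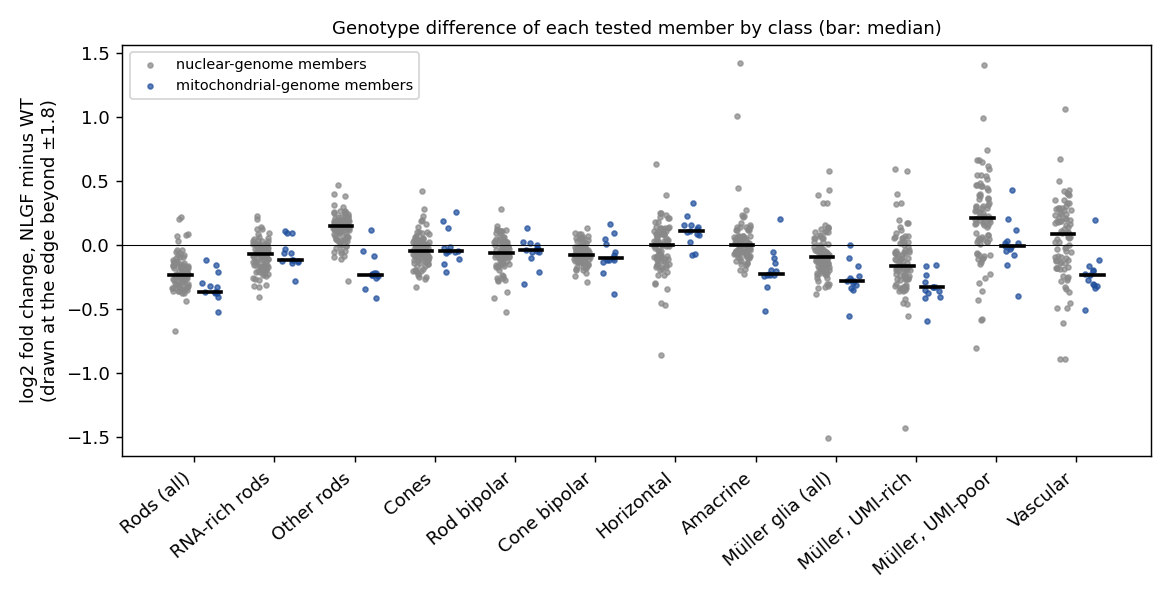
Difference between NLGF and WT (log2) of each tested member in each class but microglia, which are not drawn. Rods and Müller glia are also split by cluster. Nuclear and mitochondrial members are apart, each point is 1 gene and the bar is the median. The mitochondrial median is −0.28 in Müller glia and −0.37 in rods, and vascular cells had only 12 to 28 cells per library.

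The difference between Müller glia and rods in their NLGF effect was tested as an interaction. It called 0 members (edgeR) where 0.705% of the 13622 genes were called, and DESeq2 called 0. An unadjusted p under 0.05 (edgeR) was found for 15 nuclear and 0 mitochondrial members, beside 1157 of the 13622 genes. For mt-Atp8 the difference was −0.03 ± 0.137 (adjusted p = 0.993, edgeR), for Ndufa4l2 −1.14 ± 0.990 (0.841), for mt-Nd2 +0.06 and for mt-Nd4 +0.04. The fall of these genes in Müller glia was therefore not shown to differ from the change in rods.

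Around the chain, 7 lists with 198 genes were followed: assembly factors, the citric acid cycle, regulators of mitochondrial biogenesis, mitochondrial RNA processing, electron and metabolite carriers, mitochondrial chaperones and proteases, and the mitochondrial ribosome. For genotype 0 of them were called in any class by edgeR. In Müller glia 15 of the 192 tested had an unadjusted p under 0.05, beside 1351 of all 11197 genes. In rods 27 of the 196 tested had one, beside 1048 of all 12362 genes. Against all rods, 38 of the 198 were higher in Müller glia and 107 lower, beside the 37.2% and 38.9% of all genes. The highest were Suclg2 (+6.26 ± 0.339, log2, SE), the GTP-forming subunit of succinyl-CoA ligase, Ucp2 (+4.69 ± 0.292), an inner membrane carrier, and Hsd17b10 (+2.76 ± 0.108), a subunit of the mitochondrial RNase P. Among the lower genes were the biogenesis regulators Esrrb (−4.28 ± 0.171), Ppargc1b (−4.22 ± 0.156) and Esrrg (−2.74) and the mitochondrial messenger stabiliser Lrpprc (−2.06 ± 0.119). The adenine nucleotide carrier Slc25a5 (−2.13 ± 0.083), cytochrome c (Cycs, −1.54) and the citric acid cycle enzyme Idh3a (−1.32) were lower too. These lists were not uniform: the other adenine nucleotide carrier Slc25a4 (+1.13 ± 0.085) and Polg of the biogenesis list (+2.24 ± 0.110) were higher.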

How the data were processed

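Single-cell libraries were made from 4 retinas, 1 per library and animal. The files are matrices of raw UMI counts as deposited by the authors, 1 per library. Cell Ranger 3.1.0, STAR and the mm10 build are named in the submitters' processing notes, whereas the matrix headers give software version 6.1.1. The handling of intronic reads is not given in the sources at hand.

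Barcodes needed 300 detected genes or more, and those above 20% mitochondrial UMIs were left out after the clustering. The 6% of barcodes with the highest Scrublet scores in each library (2099) were removed, because the automatic threshold marked only 5. The remaining barcodes were clustered in scanpy 1.11.5 (2000 variable genes without the members, 30 components, 20 neighbours, resolution 1, 24 clusters). They still held 1580 barcodes above the mitochondrial limit, which were left out afterwards, and 31291 cells were used. Clusters were named from marker lists. The naming rule was tightened after the clusters were seen (at least 3 markers each found in 10% of cells), which left 3 clusters unnamed. With members allowed among the clustering genes, 87.1% of cells kept their class. Libraries shared 17 to 34 barcodes pairwise.

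Counts were summed per library and class (at least 10 cells) and tested with edgeR 4.0.16 (R 4.3.3; quasi-likelihood, filterByExpr, TMM), with Benjamini-Hochberg adjustment over all genes and a threshold of 0.05. The model was tested on simulated counts with known changes. DESeq2 1.42.0, other scalings, filters, cell limits, a sex block and leaving out each library were alternatives; the split of Müller glia and rods by cluster, the astrocyte-marker cells and RNA-rich rods as reference were added after seeing the data. For genotype, p-values measure the spread between 2 retinas per genotype, 1 female and 1 male, so that sex is part of it unless it was a block. Those of the class contrasts measure how the difference between classes varied over the 4 libraries. Those of the interaction measure how that difference varied between the libraries of a genotype. With 1 library left out, 1 genotype has a single retina, which is assumed to vary like those of the other genotype, whose spread alone is then measured. Intervals and floors cover counting error only. Gene positions come from GENCODE release M21 on GRCm38.

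The text names every member called for genotype in any class, the mitochondrial genes, the 3 highest and 3 lowest called members of each class against rods, the complex IV isoform sets, the highest and lowest member of each complex in Müller glia and rods, and up to 4 called genes per pathway list. The RNA-rich rods' ratios, Atp5b and the promoters shown were chosen after their values were seen. The members and lists were chosen with earlier results of these data known. Results of 1 member by name are not reported here; it stays in the counts.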

Additional observations from a re-analysis of the deposited data

How the results depend on the processing

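The number of members called for NLGF against WT, summed over classes, was 4 and moved most with the libraries. Leaving out 1 library gave 2 to 101 members; the highest came without the WT female (76 in rods, 15 in Müller glia and 10 in amacrine cells) and the lowest without the NLGF male. Without a filter on low counts 34 were called, with the mitochondrial genes left out of the counts 1, with a mitochondrial limit of 10% per cell 2, and with only cells of at least 1000 UMIs 14 (8 in Müller glia, 6 in rods). With sex as a replicate block 37 were called (17 in rods, 11 in Müller glia, 5 in amacrine cells, 3 in rod bipolar cells and 1 in cone bipolar cells); the pairs share only sex, and the correlations of their deviations were 0.125 to 0.351 over 2 pairs. With this block mt-Atp8 was also called in rods (adjusted p = 0.000167), rod bipolar cells (0.0013), cone bipolar cells (0.000568) and amacrine cells (4.35e-05, all edgeR). DESeq2, library totals, no mitochondrial limit and kept doublets gave 3 or 4. The share of all genes called in each of these alternatives was not taken, so the counts are not read as a result about the members. The cause of each change was not tested.

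The mitochondrial share of rods (6.01%) became 4.23% with the 10% limit and 7.03% in cells with at least 1000 UMIs, and that of Müller glia (7.08%) 9.35% without a limit and 5.70% with 10%. The nuclear share of rods (2.35%) became 2.05% with the 10% limit and 2.99% in cells with at least 1000 UMIs, and that of Müller glia (1.87%) 1.98% without a limit and 1.77% with 10%. The nuclear genotype median reversed to +0.15 in rods outside the RNA-rich cluster and to +0.21 in UMI-poor Müller glia. Summed over the class contrasts with rods, 595 calls of members were made, each member counted in every class in which it was called. The alternatives that kept all rods as the reference gave 525 to 603 calls, and leaving 1 library out gave 537 to 559. With RNA-rich rods as the reference there were 750 calls. Of these calls, 275 were higher against all rods and 38 against RNA-rich rods. The share of all genes called against RNA-rich rods is not given here. The fall in higher calls is therefore not read as particular to the members. Classes with under 35 cells per library limit what horizontal cells, microglia and vascular cells can show.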
